A study of Mus musculus with 9 samples.

Results

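The transcription factor genes Bcl6, Prdm1 and Id2 and the coactivator gene Pou2af1 were followed in cultured mouse T helper cells. They were taken by symbol from a table of 22017 gene symbols in 9 libraries, and all 4 of the 4 symbols were found and passed the filter on low values, which kept 10538 genes. Naive T cells from the spleens of wild-type C57BL/6 mice were activated through CD3 and CD28 for 3 days, kept for 2 days in cytokines alone and then in IL-2 (100 U/mL) from day 5. On day 7 they were activated again with anti-CD3 and anti-CD28 (0.05 ug/mL each) and IL-2, and RNA was taken on day 10. The group Th1-1 was held in Th1 medium, with IL-12 (10 ng/mL) and an antibody against IL-4. The group Th17-17 was held in Th17 medium, with TGF-beta (1 ng/mL), IL-6 (20 ng/mL), IL-1beta (10 ng/mL) and antibodies that block IL-4, IL-12 and interferon-gamma. The group Th17-1, Th17-derived Th1 cells, began in Th17 medium and was moved to Th1 medium at the second activation. Each group had 3 libraries, and the labels do not say whether these came from separate mice or cultures, so the p-values speak for the spread among these libraries, which may be technical.

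BCL6 and BLIMP-1 (the product of Prdm1) are transcriptional repressors that are known to repress each other's genes: BCL6 is required for T follicular helper cells, which help B cells in germinal centres, and BLIMP-1 marks effector T cells and plasma cells. ID2 has no DNA-binding region and holds E proteins, transcription factors that bind E-box sequences, in inactive pairs; it is known to favour Th1 effector cells over follicular helper cells. Pou2af1 encodes OBF-1 (also called BOB.1), a coactivator of the octamer-binding factors OCT1 and OCT2 that is best known from B cells and germinal centres and is also made by activated T cells.

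The sequence just before 3 of the start sites is shown because short motifs known for the factors discussed here were searched in it. The windows are the 250 bases before the RefSeq start (GRCm38.p6), written 5′ to 3′ on the strand of the gene. They are chr16:23988853-23989102 on the minus strand for Bcl6, chr10:44458749-44458998 on the minus strand for Prdm1 and chr9:51213440-51213689 on the plus strand for Pou2af1. Capitals mark matches, on either strand, to the octamer core ATTTGCA, the AP-1 site TGANTCA, the BLIMP-1 core AGNGAAAG and TTCNNNGAA, a pattern that STAT factors bind and that resembles the BCL6 site.
Bcl6: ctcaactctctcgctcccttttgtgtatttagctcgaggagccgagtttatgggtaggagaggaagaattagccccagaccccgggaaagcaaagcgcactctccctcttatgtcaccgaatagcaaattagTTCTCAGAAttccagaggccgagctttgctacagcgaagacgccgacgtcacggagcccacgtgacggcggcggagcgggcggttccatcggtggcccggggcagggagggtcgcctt
Prdm1: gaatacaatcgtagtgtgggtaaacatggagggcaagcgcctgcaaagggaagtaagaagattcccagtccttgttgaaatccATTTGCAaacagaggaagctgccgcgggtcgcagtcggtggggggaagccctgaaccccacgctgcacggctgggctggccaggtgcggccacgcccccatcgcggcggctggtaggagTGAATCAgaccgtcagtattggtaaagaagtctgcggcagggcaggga
Pou2af1: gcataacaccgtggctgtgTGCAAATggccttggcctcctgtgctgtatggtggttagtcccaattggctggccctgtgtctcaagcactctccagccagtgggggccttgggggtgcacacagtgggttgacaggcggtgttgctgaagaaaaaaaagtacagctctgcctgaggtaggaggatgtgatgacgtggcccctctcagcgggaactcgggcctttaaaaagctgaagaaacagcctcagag

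The Bcl6 window held TTCTCAGAA, which begins 118 bases before the start. The Prdm1 window held an octamer core 167 bases and an AP-1 match 48 bases before the start, and the Pou2af1 window held an octamer core, as TGCAAAT on the printed strand, 231 bases before the start. Over the windows of the same length before 32851 RefSeq starts, 3.56% held the octamer core, 6.75% the AP-1 letters, 7.02% TTCNNNGAA and 7.30% AGNGAAAG, which was in none of the 4 windows. The E-box CANNTG, which E proteins bind, was in all 4 windows and in 66.2% of all windows, and in the Prdm1 and Pou2af1 windows 1 E-box overlapped the octamer core. The matches are letters only, and binding was not measured. The Prdm1 start lies inside an intron of a longer annotated Prdm1 transcript, and the Id2 window overlaps an annotated exon by 161 bases and is not printed.

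Levels are given in FPKM, fragments divided by transcript length and by library size, with the libraries of a group in the order of replicates 1, 2 and 3. Differences are in log2(FPKM + 1), which understates the change of genes with low values, and a gene was called where the p-value from limma, adjusted over all 10538 tested genes, was below 0.05. A library summed to 382581 to 405985 FPKM, and read depth is unknown. The summed level of 8 T cell markers was 1040 to 1268 FPKM in every library. Replicate 3 of each group had more of the CD8 T cell marker Cd8a (104.1 to 140.6 FPKM, against 15.3 to 54.9 in the other libraries), so results are also given without the 3 libraries numbered 3 where that changed a call of the 4 genes or a count described for a list. As a background for counts, in Th1-1 against Th17-17 the test called 14.0% of genes higher and 28.9% lower, in Th17-1 against Th17-17 it called 6.43% higher and 9.49% lower, and in Th17-1 against Th1-1 it called 5.67% higher and 4.81% lower. The share of the calls that were higher was 32.7%, 40.4% and 54.1% in these comparisons and 53.6%, 62.6% and 45.8% after median-ratio scaling. The comparisons share libraries, so their values are set side by side without a test between them.

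Prdm1 (ENSMUSG00000038151.13, chromosome 10, 44437177 to 44528501, minus strand, GRCm38) was highest in Th1-1, intermediate in Th17-1 and lowest in Th17-17. It measured 8.32, 6.43 and 8.40 FPKM in Th1-1, for a mean of 7.72 ± 1.11 (SD, n = 3). In Th17-1 it measured 3.74, 3.46 and 4.91 FPKM (mean 4.04 ± 0.769, SD, n = 3), and in Th17-17 it measured 0.875, 1.10 and 1.83 FPKM (mean 1.27 ± 0.498, SD, n = 3). The 3 groups did not overlap, and the lowest value was under the 1 FPKM used in the filter. Fewer cells of a type that makes a transcript and less of it per cell cannot be told apart in RNA of whole cultures.

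Prdm1 was higher in Th1-1 than in Th17-17 by 1.96 on the log2(FPKM + 1) scale (SE 0.182, 95% confidence interval 1.55 to 2.37, limma adjusted p 0.00012), and the ratio of the mean FPKM values was 6.09. Th17-1 was above Th17-17 by 1.16 (interval 0.752 to 1.57, limma adjusted p 0.00346), a ratio of means of 3.19. Th17-1 was below Th1-1, with a difference of -0.79 (interval -1.21 to -0.383, limma adjusted p 0.0272). On the log2 scale the mean of Th17-1 lay 59.4% of the way from Th17-17 to Th1-1. Calls in all 3 comparisons in this order (Th1-1 over Th17-1 over Th17-17) were made for 88 genes, or 0.835% of those tested, and Prdm1 was the only one of the 4 genes among them. The call between Th17-1 and Th1-1 was lost without Th1-1 replicate 1 (-0.742, limma adjusted p 0.0834), Th1-1 replicate 3 (-0.735, 0.104), Th17-1 replicate 1 (-0.756, 0.102) or Th17-1 replicate 2 (-0.711, 0.116), and it held without all 3 libraries numbered 3 (-0.86).

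**Figure D1:**
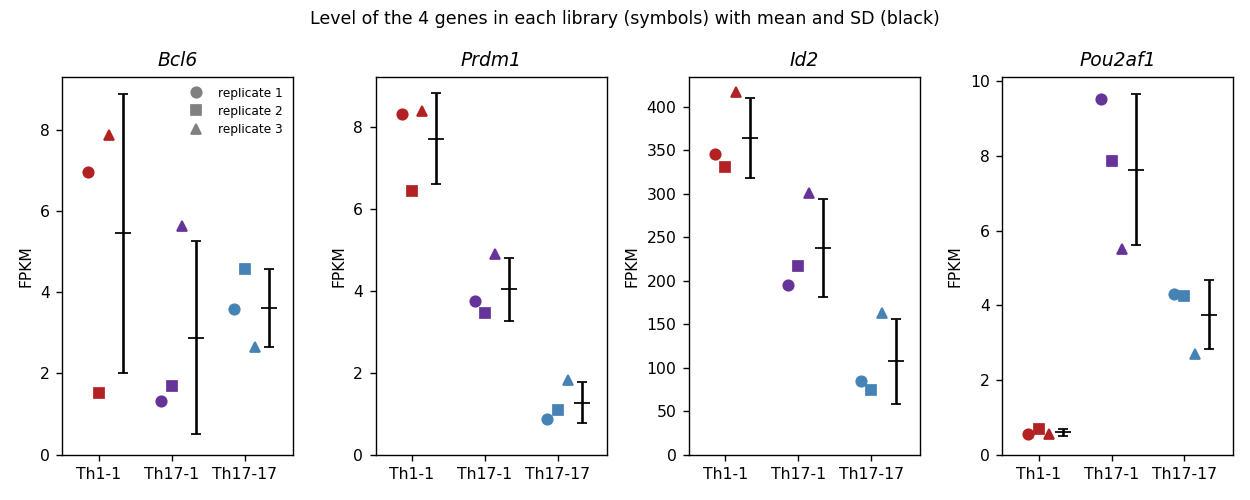
FPKM (vertical axes, linear, from 0, a scale of its own for each gene) of Bcl6, Prdm1, Id2 and Pou2af1 in each of the 9 libraries by group, with replicates 1, 2 and 3 as circle, square and triangle and the mean ± SD in black. Prdm1 steps down from Th1-1 to Th17-1 to Th17-17 with no overlap, Pou2af1 is under 1 FPKM in all 3 Th1-1 libraries, and the Bcl6 values of the 3 groups overlap.

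Id2 (ENSMUSG00000020644.9, chromosome 12, 25093799 to 25097140, minus strand) had the highest level of the 4 genes per transcript length, and its mean over the 9 libraries exceeded that of 98.0% of tested genes. It measured 345.5, 330.5 and 416.9 FPKM in Th1-1 (mean 364.3 ± 46.2, SD, n = 3). In Th17-1 the values were 194.8, 216.9 and 301.5 FPKM (mean 237.7 ± 56.3, SD, n = 3), and in Th17-17 they were 84.9, 74.3 and 163.1 FPKM (mean 107.4 ± 48.5, SD, n = 3). The groups did not overlap, and within each group replicate 3 was the highest library, as it was for Prdm1.

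Id2 was higher than in Th17-17 both in Th1-1, by 1.83 on the log2(FPKM + 1) scale (SE 0.278, interval 1.21 to 2.46, limma adjusted p 0.00123), and in Th17-1, by 1.20 (interval 0.574 to 1.83, limma adjusted p 0.0204). These differences correspond to 3.56-fold and 2.30-fold higher values. Between Th17-1 and Th1-1 the difference was -0.63 (interval -1.26 to -0.0045), which had an unadjusted limma p of 0.0487 and an adjusted p of 0.186. Without the 3 libraries numbered 3, which had the most Cd8a, this difference was -0.715 and passed the test (limma adjusted p 0.0230). The call of Th17-1 over Th17-17 was lost without Th17-1 replicate 2 (1.25, limma adjusted p 0.0511), Th17-1 replicate 3 (1.02, 0.0645), Th17-17 replicate 1 (1.08, 0.0901) or Th17-17 replicate 2 (0.982, 0.0873). Over the 9 libraries the log2 levels of Id2 and Prdm1 had a Pearson r of 0.969, given as a description because the libraries share their groups.

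Pou2af1 (ENSMUSG00000032053.8, chromosome 9, 51213708 to 51240080, plus strand) had a different order, with the highest level in Th17-1 and almost none in Th1-1. The 3 Th1-1 libraries measured 0.547, 0.700 and 0.555 FPKM (mean 0.601 ± 0.0859, SD, n = 3). In Th17-1 the values were 9.54, 7.87 and 5.50 FPKM (mean 7.64 ± 2.03, SD, n = 3), and in Th17-17 they were 4.32, 4.25 and 2.69 FPKM (mean 3.75 ± 0.922, SD, n = 3). No group overlapped another, and in both groups that began in Th17 medium replicate 3 was the lowest library. All Th1-1 values were under 1 FPKM, so the gene entered the test only through the other groups.

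In Th17-1 Pou2af1 was above Th1-1 by 2.41 on the log2(FPKM + 1) scale (interval 1.95 to 2.86, limma adjusted p 0.000414), and the ratio of the mean FPKM values was 12.7. It was also above Th17-17, by 0.85 (interval 0.403 to 1.31, limma adjusted p 0.0215, ratio of means 2.04). Th1-1 was below Th17-17, with a difference of -1.55 (SE 0.200, interval -2.00 to -1.10, limma adjusted p 0.000576). A level in Th17-1 above both other groups was called for 95 genes, 0.901% of those tested, and Pou2af1 was the only one of the 4 genes among them. The call of Th17-1 over Th17-17 was lost without Th17-1 replicate 1 (0.697, limma adjusted p 0.0802), Th17-1 replicate 2 (0.821, 0.0693), Th17-17 replicate 2 (0.936, 0.0525) or Th17-17 replicate 3 (0.682, 0.0504). Without all 3 libraries numbered 3, which had the most Cd8a, the differences were -1.70, 0.873 and 2.58 (Th1-1 against Th17-17, Th17-1 against Th17-17 and Th17-1 against Th1-1), and all 3 passed the test.

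Because Pou2af1 is best known from B cells, 12 B cell markers were summed. The sum was 1.65 to 3.42 FPKM in Th1-1, 2.84 to 4.44 in Th17-1 and 10.4 to 13.8 in Th17-17. Most of the sum in Th17-17 was Cd72 (5.17 to 8.08 FPKM), and 8 of the 12 markers were under 1 FPKM in every library. Ms4a1, a defining B cell marker, did not exceed 0.0652 FPKM. Of 6 plasma cell markers, Tnfrsf17 was at 0 in all 9 libraries and Sdc1 did not exceed 0.698 FPKM. The sum of the 6 was 39.5 to 94.7 FPKM in Th1-1, 53.1 to 88.5 in Th17-1 and 61.9 to 94.0 in Th17-17, of which Xbp1, a factor that T cells also make, was the largest part. Jchain, the joining chain of antibodies, was at 0 to 0.0993 FPKM in Th1-1, 0.921 to 2.00 in Th17-1 and 0.446 to 2.49 in Th17-17. Mzb1, a chaperone of antibody-secreting cells, was at 0 to 0.115, 0.517 to 1.05 and 0 to 0.589 FPKM in the same order, and Derl3 at 0.797 to 1.13, 0.666 to 0.867 and 0.348 to 0.669 FPKM. Jchain and Mzb1, both near the floor, were lower in every Th1-1 library than in any Th17-1 library. Derl3, Sdc1 and Xbp1 overlapped between these groups, and the mean of Derl3 was higher in Th1-1. The share of all genes with such a separation was not counted. The part of B cell or plasma cell markers in the Pou2af1 result was not tested.

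Bcl6 (ENSMUSG00000022508.5, chromosome 16, 23965052 to 23988852, minus strand) differed more within groups than between them. It measured 6.97, 1.52 and 7.87 FPKM in Th1-1 (mean 5.45 ± 3.43, SD, n = 3). In Th17-1 the values were 1.33, 1.69 and 5.63 FPKM (mean 2.89 ± 2.38, SD, n = 3), and in Th17-17 they were 3.58, 4.58 and 2.66 FPKM (mean 3.60 ± 0.958, SD, n = 3). Th1-1 replicate 2 was low beside its group and Th17-1 replicate 3 was high beside its own, so all 3 groups overlapped.

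The Bcl6 difference between Th1-1 and Th17-17 was 0.31 on the log2(FPKM + 1) scale (SE 0.516, interval -0.855 to 1.48, limma adjusted p 0.649). It was -0.39 between Th17-1 and Th17-17 (interval -1.55 to 0.778, limma adjusted p 0.628) and -0.70 between Th17-1 and Th1-1 (interval -1.87 to 0.467, limma adjusted p 0.432). These intervals admit differences of more than 1 log2 unit, so the missed threshold does not show equal levels. The SD within groups, pooled over the 3 groups, was 0.768 log2 units, larger than that of 99.4% of tested genes, against a median of 0.171. For comparison it was 0.242 for Prdm1, 0.271 for Pou2af1 and 0.408 for Id2. The difference between Th1-1 and Th17-17 turned to -0.0172 without Th1-1 replicate 3 and was 0.890 without Th1-1 replicate 2.

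**Figure D2:**
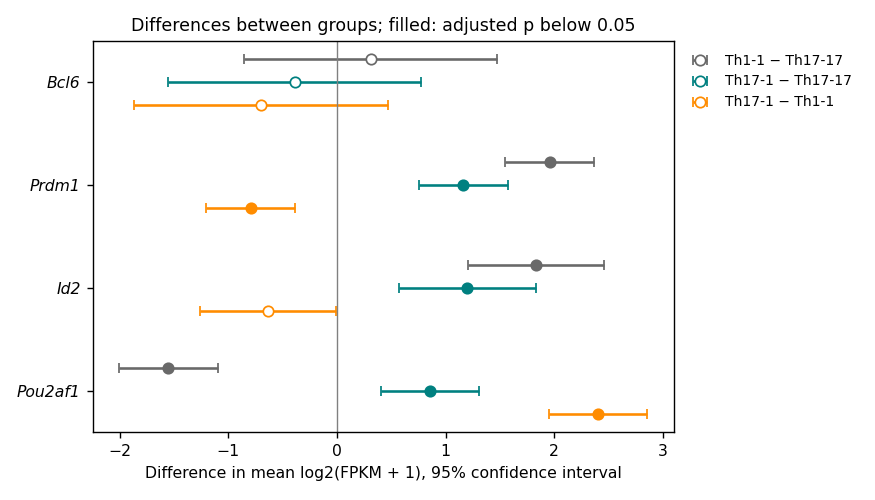
Difference in mean log2(FPKM + 1) (horizontal axis) of each of the 4 genes in the 3 comparisons, with bars for the 95% confidence interval and filled circles where the limma adjusted p was below 0.05. The Bcl6 intervals all span 0, and the only other open circle is Id2 between Th17-1 and Th1-1, at -0.63.

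Bcl6 did not run opposite to Prdm1 over the libraries: the Pearson r of their log2 levels was 0.251 over 9 libraries, and it was 0.191 for Bcl6 with Id2 and -0.482 for Bcl6 with Pou2af1. The ratio of Bcl6 to Prdm1 FPKM was higher in each Th17-17 library than in any other library. This ratio was not tested, and it carries the Prdm1 difference already given. It was 4.09, 4.17 and 1.46 in Th17-17, 0.356, 0.490 and 1.15 in Th17-1, and 0.838, 0.237 and 0.937 in Th1-1. All 3 Th17-17 libraries had more Bcl6 than Prdm1, as did Th17-1 replicate 3, and the other 5 libraries had less. The ratio of Pou2af1 to Prdm1 was 0.0658 to 0.109 in Th1-1, 1.12 to 2.55 in Th17-1 and 1.47 to 4.93 in Th17-17, where the groups begun in Th17 medium overlapped.

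Socs2 and Il7r, from the list of genes known as repressed by BCL6, had the lowest and the highest correlation with Bcl6 in that list and were chosen after their values were seen. Of the list's 13 genes without Prdm1 and Id2, 10 had a positive r with Bcl6 over the 9 libraries and 3 a negative one, of which the second lowest was -0.464 for Ccr6, so most of the list did not run opposite to Bcl6. Socs2, a feedback inhibitor of cytokine signalling that STAT5 is known to induce, measured 37.4, 83.7 and 31.1 FPKM in Th1-1, 101.6, 104.4 and 36.6 in Th17-1, and 58.1, 58.3 and 58.9 in Th17-17. It was high in the 3 libraries where Bcl6 was lowest and low in the 3 where Bcl6 was highest, with a Pearson r of -0.961 over the 9 libraries. Il7r, the IL-7 receptor chain that IL-2 is known to lower, measured 148.0, 36.5 and 125.3 FPKM in Th1-1, 83.8, 86.5 and 172.8 in Th17-1, and 126.9, 126.3 and 69.4 in Th17-17. Its r with Bcl6 was 0.773, and 0.951 on deviations from group means. Neither gene was called in any comparison (Socs2 limma adjusted p 0.383 to 0.639, Il7r 0.735 to 0.948).

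**Figure D3:**
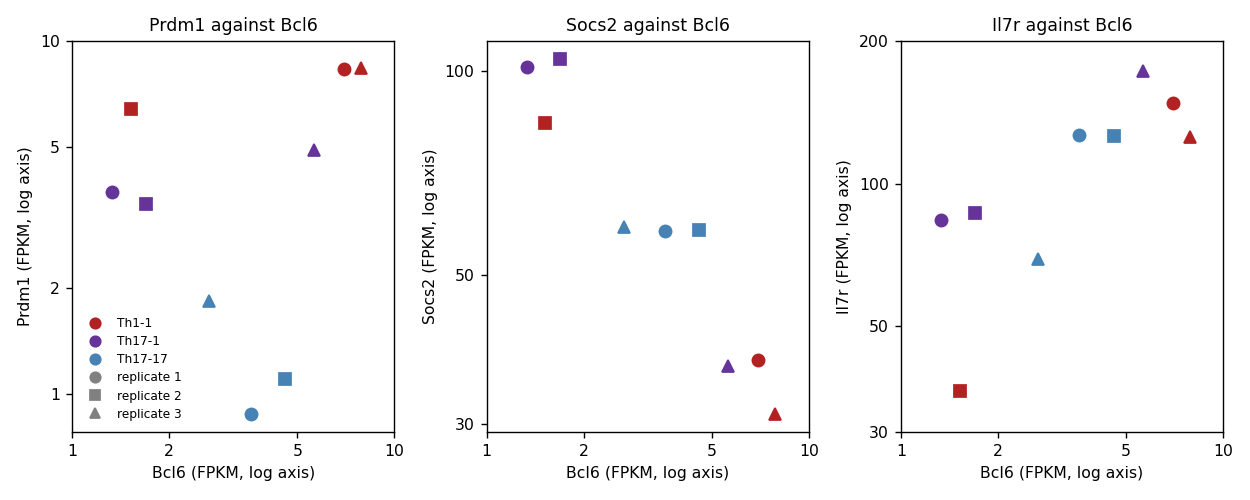
FPKM of Prdm1, Socs2 and Il7r (vertical axes, log) against Bcl6 (horizontal axes, log) in the 9 libraries, with groups by colour and replicates by symbol. Prdm1 separates by group at any Bcl6 level, whereas Socs2 is 101.6 FPKM in the library with the least Bcl6 (1.33 FPKM) and 31.1 FPKM in the one with the most (7.87 FPKM), across groups.

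By a rule applied to each of the 4 genes, the genes most like it over the 9 libraries were taken from those with a mean of at least 5 FPKM. For Prdm1 these were Serpine2 (r 0.996), Tbx21 (0.995), Zmat3 (0.995), Anxa6 (0.993) and Tbkbp1 (0.992), and the most opposite were Pigm (-0.995), Mga (-0.994) and Mrps5 (-0.993). Tbx21 encodes T-bet, the factor that defines Th1 cells, and averaged 85.9 FPKM in Th1-1, 33.0 in Th17-1 and 8.51 in Th17-17. For Id2 they included Sytl3, Hopx, Glipr1 and Trp53i11 (r 0.987 to 0.99), with Sgpp1, Mrs2 and Srsf5 opposite (-0.986 to -0.982). Hopx, a homeodomain protein of effector T cells, averaged 177.9, 75.0 and 22.1 FPKM in the same order of groups.

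For Pou2af1 the most alike were Slc35g1 (r 0.981), Pik3c2a (0.972), Pcca (0.972), Snx2 (0.971) and Adar (0.97), an RNA-editing enzyme. The most opposite was Zfp683 (-0.989), which encodes HOBIT, a close relative of BLIMP-1, with means of 13.9 FPKM in Th1-1, 2.92 in Th17-1 and 5.32 in Th17-17. Tstd3 (-0.986) and Lxn (-0.975) followed. For Bcl6 the most alike were Calcoco1 (0.989), Mindy2 (0.988), Khnyn (0.984), Ccndbp1 (0.983) and Gpx4 (0.974). The most opposite were Psmc5 (-0.982) and Psmd7 (-0.981), both proteasome subunits, and Atg3 (-0.976), an autophagy enzyme. These are the extremes of about 7954 genes over libraries that fall into 3 groups, so they describe likeness and carry no test.

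The genes known to act on Bcl6 differed between groups although Bcl6 did not pass the test. Of 10 tested genes known as inputs to Bcl6, 7 were higher and 0 lower in Th17-1 than in Th1-1, with a median difference of 1.08 against 0.0511 over all tested genes. The count was 4 without the libraries numbered 3. Il6ra, the IL-6 receptor chain, averaged 0.898 FPKM in Th1-1, 12.8 in Th17-1 and 24.2 in Th17-17 and was 2.90 log2 units higher in Th17-1 than in Th1-1. Tcf7, which encodes TCF-1, an activator of Bcl6, measured 79.2, 26.2 and 50.6 FPKM in Th1-1 and 252.8 to 365.5 in Th17-1, a difference of 2.60. Maf was also higher, by 2.04. In Th1-1 against Th17-17, 3 of the 10 inputs were higher (Batf, Il6st and Icos) and 4 lower (Il6ra, Tcf7, Lef1 and Maf), or 2 and 4 without the libraries numbered 3. The call of Icos, a costimulatory receptor, was lost without Th1-1 replicate 1 or 3 or any 1 of the Th17-17 libraries (0.363 to 0.568, limma adjusted p 0.0745 to 0.11). In Th17-1 against Th17-17, 4 inputs were higher and 0 lower, with 1 lower without Th1-1 replicate 2, without Th17-17 replicate 3 or without all libraries numbered 3. Il6st, the shared signalling chain gp130, was among the 4 and averaged 39.5 FPKM in Th17-1 and 7.46 in Th17-17.

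For the 12 tested IL-2 and other inputs known to raise Prdm1 or oppose Bcl6, Th1-1 had 6 higher and 1 lower against Th17-17, and Th17-1 had 3 higher and 1 lower. Their medians were 0.46 and 0.22, against -0.169 and -0.121 over all tested genes. Il2ra, the high-affinity IL-2 receptor chain, averaged 470.6 FPKM in Th1-1, 423.8 in Th17-1 and 94.9 in Th17-17. Irf4, a factor known to activate Prdm1, averaged 25.0, 22.2 and 11.0 FPKM and was higher in both groups by 1.15 and 0.98. The gene lower in both comparisons was Klf2, a quiescence factor, at 10.8, 42.7 and 125.8 FPKM. Without the libraries numbered 3 the counts were 4 higher and 2 lower in Th1-1, and 4 higher and 1 lower in Th17-1. Without Th17-17 replicate 3 alone, 2 were lower in Th1-1 and 5 higher in Th17-1. Of the 5 genes listed here as repressors of Prdm1, only Bach2 and Bcl6 passed the filter. Bach2 averaged 3.76 FPKM in Th1-1 and 10.5 in both other groups. It was lower in Th1-1 than in Th17-17, with a difference of -1.27 (limma adjusted p 0.00772). It was 1.31 higher in Th17-1 than in Th1-1 (limma adjusted p 0.0224). The second call was lost without Th1-1 replicate 3, Th17-1 replicate 1 or Th17-1 replicate 2 (1.36, 1.41 and 1.31, limma adjusted p 0.0604 to 0.0854), and without all libraries numbered 3 (1.26).

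Genes known as repressed by BLIMP-1 were mostly lower where Prdm1 was highest. Of 8 tested, without Bcl6, Th1-1 had 0 higher and 6 lower against Th17-17 (Klf2, S1pr1, Tcf7, Ccr7, Id3 and Bach2), with a median of -2.00. All of these but Ccr7 are also in other lists described here, so the list counts are not separate results. Against the same Th1-1 libraries, 6 were higher and 0 lower in Th17-1, with a median of 1.91 and Tcf7, Ccr7 and Id3 the furthest apart. In Th17-1 against Th17-17, where Prdm1 was also called higher, 2 were lower, Klf2 and S1pr1, and 0 higher, with a median of 0.04. Ccr7, the lymph node homing receptor, averaged 30.2 FPKM in Th1-1, 140.0 in Th17-1 and 140.3 in Th17-17. S1pr1, the receptor for exit from lymph nodes, averaged 12.9, 51.5 and 116.6 FPKM. Its difference of -1.10 between Th17-1 and Th17-17 missed the threshold without Th17-1 replicate 1, Th17-17 replicate 1 or Th17-17 replicate 2 (-1.03, -0.958 and -0.935, limma adjusted p 0.0721 to 0.0867), which leaves 1 gene lower. Without the libraries numbered 3 the counts of higher and lower genes were 1 and 6 in Th1-1 against Th17-17, 5 and 0 in Th17-1 against Th1-1, and 1 and 2 in Th17-1 against Th17-17, where the median turned to -0.239.

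Among 9 genes linked to BLIMP-1 in effector T cells, Th1-1 had 6 higher and 1 lower than Th17-17, and Th17-1 had 5 higher and 1 lower (medians 1.73 and 1.27). In Th17-1, 6 were higher without the libraries numbered 3, only 3 were higher without Th17-1 replicate 3, Th17-17 replicate 1 or Th17-17 replicate 2, and 0 lower without Th17-1 replicate 1 or 2 or any 1 of the Th17-17 libraries. Il10, an anti-inflammatory cytokine, averaged 93.9 FPKM in Th1-1, 94.6 in Th17-1 and 12.9 in Th17-17, and was 2.85 log2 units higher in Th17-1 than in Th17-17. Havcr2, the inhibitory receptor TIM-3, averaged 45.3, 14.9 and 3.67 FPKM, the same order as Prdm1. Its difference of -1.61 between Th17-1 and Th1-1 was called, and the call was lost without Th1-1 replicate 3, Th17-1 replicate 1 or Th17-1 replicate 2 (-1.46, -1.40 and -1.48, limma adjusted p 0.0642 to 0.0707).

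Of 13 genes known as repressed by BCL6, without Prdm1 and Id2, Th1-1 had 4 higher and 2 lower than Th17-17, with a median of -0.06, or 5 and 2 without the libraries numbered 3. In Th17-1, 3 were higher than in Th17-17 and 2 lower (median 0.06), of which 0 were lower without Th17-1 replicate 1, Th17-17 replicate 1 or Th17-17 replicate 2 and 1 without Th1-1 replicate 1, Th1-1 replicate 3, Th17-1 replicate 2 or Th17-17 replicate 3. Cdkn1a, a cell cycle inhibitor, averaged 270.2 FPKM in Th1-1, 131.1 in Th17-1 and 39.7 in Th17-17, and Gpr183, an oxysterol receptor that guides T cell position, averaged 26.2, 24.7 and 10.4 FPKM. Of 7 BCL6 corepressors, Th1-1 had 0 higher and 4 lower than Th17-17, led by Bcor at 12.0 FPKM against 23.4 (-0.91), with a list median of -0.36. Of 8 BLIMP-1 cofactors, 1 was higher (Tle3, by 0.40) and 4 lower in the same comparison, with a median of -0.30. Median-ratio scaling moved the median of all tested genes in this comparison from -0.169 to -0.0149. The corepressors then had 0 higher and 3 lower (median -0.194), and the cofactors 1 higher and 2 lower (median -0.131). Tle1, a Groucho corepressor, averaged 0.182 FPKM in Th1-1, 1.24 in Th17-1 and 4.25 in Th17-17. Without the libraries numbered 3, 0 cofactors were higher and 2 lower, and 2 were lower without Th1-1 replicate 3, Th17-17 replicate 2 or Th17-17 replicate 3 alone.

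Of 10 tested T follicular helper genes, 5 were higher in Th17-1 and 0 lower than in Th17-17 (median 0.65), and 6 were higher and 1 lower than in Th1-1 (median 0.78). Against Th17-17, 3 were higher without Th17-1 replicate 1. Against Th1-1 the counts were 4 and 2 without the libraries numbered 3, and 3 were higher without Th1-1 replicate 3, Th17-1 replicate 1 or Th17-1 replicate 2 alone. The gene lower than in Th1-1 was Pdcd1, which encodes PD-1, and its call was lost in 7 of 9 single omissions. Il21, the cytokine by which follicular helper cells support B cells, averaged 31.0 FPKM in Th17-1, 1.21 in Th1-1 and 0.569 in Th17-17. It passed the filter through the 3 Th17-1 libraries, with 1 other library, Th1-1 replicate 1, above 1 FPKM (1.80), so its calls as higher there carry no support. The counts of 5 and 6 genes higher in Th17-1 and both medians include Il21. Btla, an inhibitory receptor, averaged 41.4 FPKM in Th17-1, 18.4 in Th1-1 and 21.6 in Th17-17, and was called against both. In Th1-1 against Th17-17, 3 of the 10 were higher and 2 lower, where 14.0% of all tested genes were higher and 28.9% lower. Without Th17-17 replicate 1 only 1 was lower, and without the libraries numbered 3 the counts were 2 and 2. Cxcr5, Ascl2 and Tox2, which are central to that cell type, did not pass the filter on low values.

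**Figure D4:**
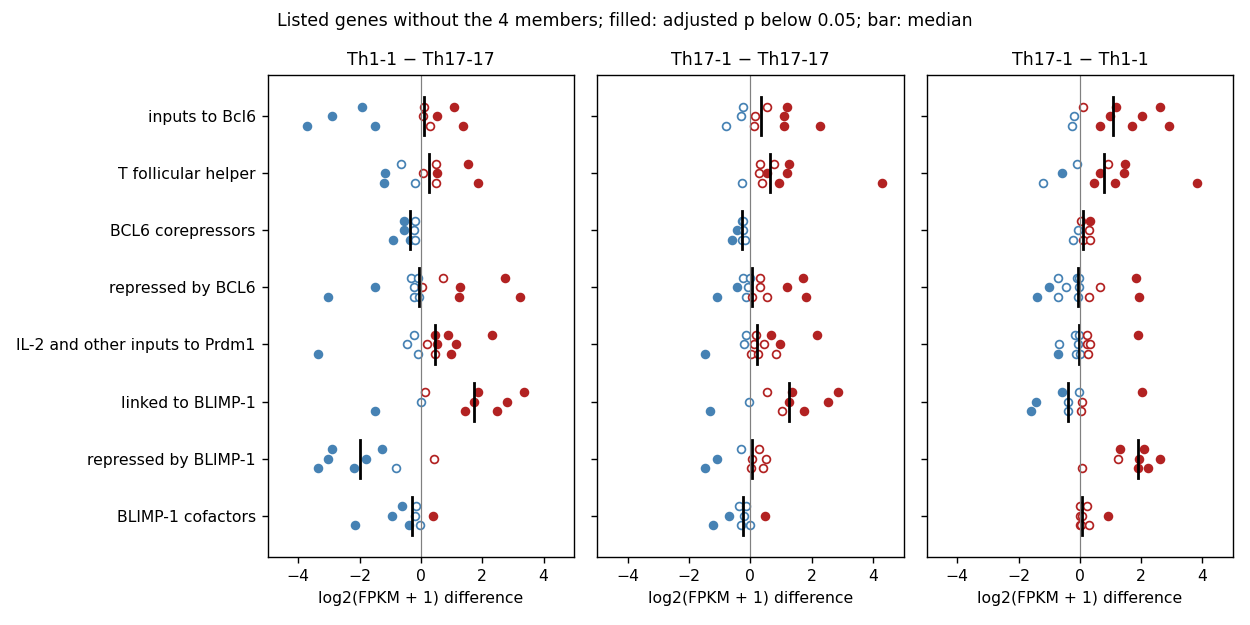
Difference in log2(FPKM + 1) (horizontal axes) of each tested gene in 8 lists, without Bcl6, Prdm1, Id2 and Pou2af1, in the 3 comparisons, filled where the limma adjusted p was below 0.05 and with a black bar at the list median (vertical jitter has no meaning). Genes repressed by BLIMP-1 have a median of -2.00 in Th1-1 against Th17-17, 0.04 in Th17-1 against Th17-17 and 1.91 in Th17-1 against Th1-1.

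Within the ID family, Id3 was lowest in Th1-1, where Id2 was highest. It measured 1.98, 4.98 and 1.37 FPKM in Th1-1, 14.6, 17.8 and 9.87 in Th17-1, and 11.9, 13.5 and 8.73 in Th17-17. Th1-1 did not overlap the other groups, which overlapped each other. The difference was -1.81 between Th1-1 and Th17-17 (limma adjusted p 0.00318), 2.08 between Th17-1 and Th1-1 (0.00668) and 0.27 between Th17-1 and Th17-17 (0.599). Id1 and Id4 were too low to test. The E proteins, which ID2 and ID3 bind, were called in 0 of 3 comparisons: Tcf3 averaged 54.8 FPKM in Th1-1, 52.0 in Th17-1 and 54.1 in Th17-17, Tcf12 averaged 21.8, 19.5 and 21.4, and Tcf4 averaged 2.38, 1.83 and 1.83. The limma adjusted p-values of the 3 genes were 0.384 to 0.997, and 0 of these p-values was below 0.05 before adjustment. In each library the level of Id2 per transcript length was above that of Tcf3.

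**Figure D5:**
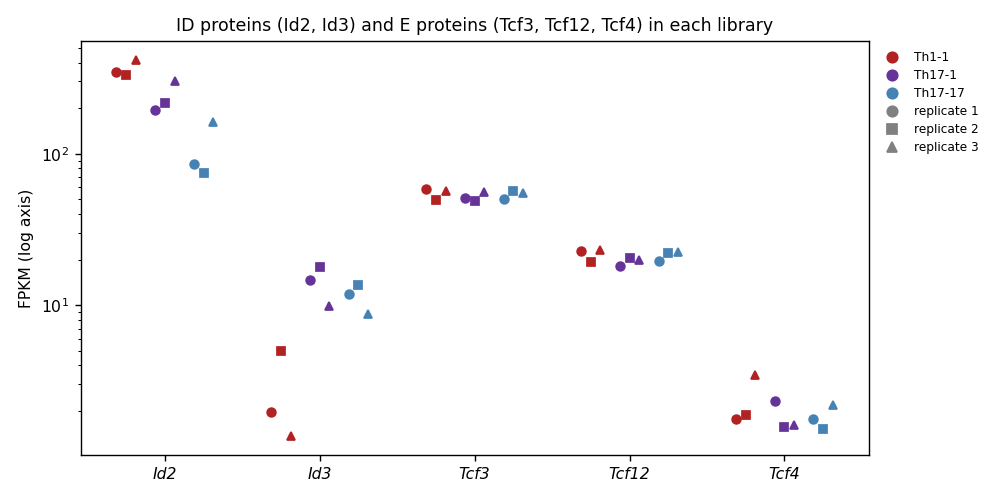
FPKM (vertical axis, log) of the ID protein genes Id2 and Id3 and the E protein genes Tcf3, Tcf12 and Tcf4 in the 9 libraries, with groups by colour and replicates by symbol. Th1-1 is the highest group for Id2 (330.5 to 416.9 FPKM) and the lowest for Id3 (1.37 to 4.98 FPKM), while the E protein values of the groups lie side by side.

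The genes of the DNA-binding partners of OBF-1 had low levels. Pou2f1, which encodes OCT1, averaged 3.89 FPKM in Th1-1, 5.15 in Th17-1 and 6.85 in Th17-17, and was lower in Th1-1 than in Th17-17 (-0.68, limma adjusted p 0.000865). It was also lower in Th17-1 than in Th17-17 (-0.35, limma adjusted p 0.0375), a call lost in 6 of 9 single omissions and without all libraries numbered 3. Pou2f2, which encodes OCT2, averaged 3.65, 2.19 and 3.62 FPKM and was not called in any comparison (limma adjusted p 0.152 to 0.945). Of 10 tested BTB zinc finger relatives of BCL6, Th1-1 had 4 higher and 3 lower than Th17-17, or 3 and 2 of 8 without the libraries numbered 3. The shares over all tested genes were 14.0% higher and 28.9% lower, so the count of lower genes is near the background. Among the 3 lower genes, Zbtb20 passed the filter only through the Th17-17 libraries (1.43 to 2.48 FPKM), so its call carries no support. Among the 4 higher genes, Zbtb46 reached 1 FPKM only in Th1-1 replicates 1 and 3 (1.66 and 2.32) and Th17-1 replicate 3 (1.51). Its call (limma adjusted p 0.0444) likewise carries no support. Zbtb32, which restrains lymphocyte activation, averaged 49.1 FPKM in Th1-1, 58.3 in Th17-1 and 11.1 in Th17-17. Of 6 PRDM relatives of BLIMP-1, Th1-1 had 0 higher and 4 lower than Th17-17 (2 without the libraries numbered 3). After median-ratio scaling 1 was higher and 3 lower. None of the 6 was called between Th17-1 and Th1-1 (limma adjusted p 0.0684 to 0.972, with 1 gene, Prdm2, below 0.05 before adjustment). Prdm2 averaged 13.4, 16.5 and 18.9 FPKM, and Prdm11 averaged 2.12, 2.08 and 3.78 FPKM.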

How the data were processed

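RNA sequencing of 9 mouse T helper cell libraries (3 groups of 3) was used as FPKM values deposited by the authors for 22017 gene symbols. Per the submitters' processing notes, HISAT2, DESeq2 and the mm10 build were used (versions, roles, annotation and the handling of multiply mapped reads: not given in the sources used here). FPKM holds no counts and shifts with library composition. The test ran on log2(FPKM + 1) with limma 3.58.1 (R 4.3.3), with a mean-variance trend, over all 9 libraries and the genes that reached 1 FPKM in 3 or more of them. Two-sided p-values were adjusted by the Benjamini-Hochberg method over the 10538 tested genes, with a threshold of 0.05. The fit was tested on simulated data.

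The 4 genes and 14 gene lists (114 genes, some in several lists, with 96 tested) were chosen with earlier results of these data known. Named genes were the 4 members, up to 3 called genes per list, direction and comparison, and the 5 most and 3 least correlated genes, of which 1 is not reported here. A few list genes outside this rule (Socs2, Il7r, Btla, Tcf3, Tcf4, Tcf12, Pou2f2, Zbtb46) were named after their values were seen. Gene positions came from GENCODE M21 (GRCm38) and windows before start sites from RefSeq (GRCm38.p6), of which 4 of 4 genes matched. Alternatives were a replicate block, pseudocounts, filters, scalings, variance models, array weights, fits of 2 groups, a Cd8a and Cd8b1 covariate, and the omission of libraries. Python 3.11.15 with pandas 2.3.3 joined the tables, and matplotlib 3.10.9 drew the plots.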

Additional observations from a re-analysis of the deposited data

How the results depend on the processing

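Of 276 alternative values of the 4 genes (23 alternatives, 4 genes, 3 comparisons), 254 kept their direction and their side of the threshold, 14 lost a call, 6 gained one and 2 changed sign; where no values below show a cause, the cause was not tested. The 2 that changed sign were Bcl6 in Th1-1 against Th17-17, at -0.0172 without Th1-1 replicate 3 (range over single omissions -0.0172 to 0.890) and -0.172 without replicate 3 in all groups. With array weights all 3 Bcl6 differences passed (0.746 for Th1-1 and -0.822 for Th17-1, both against Th17-17, and -1.57 for Th17-1 against Th1-1). Id2 in Th17-1 against Th1-1 passed with a replicate block (-0.632, adjusted p 0.0435), without replicate 3 in all groups (-0.715) and with array weights (-0.873). Prdm1 in Th17-1 against Th1-1 did not pass with a pseudocount of 0.1 (-0.924, limma adjusted p 0.0533) or without the filter (-0.794, limma adjusted p 0.0534). It also did not pass in 4 of 9 single omissions, where the range over all 9 was -0.914 to -0.711. Single omissions gave 0.982 to 1.54 for Id2 and 0.682 to 1.05 for Pou2af1 in Th17-1 against Th17-17, each with 4 of 9 not passing.

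Same-numbered libraries deviated together with r of 0.333, -0.177 and -0.00482 (Th1-1 and Th17-17) and 0.149, 0.0648 and -0.0115 (Th17-1 and Th17-17). For Th17-1 and Th1-1 these r were -0.178, 0.537 and 0.659, and libraries with different numbers gave -0.646 to 0.459. Cd8a was highest in replicate 3 of each group. The labels do not say that a number is shared, so the numbers were not taken as pairs. Whether they mark pairs cannot be told from these values. With the replicate block the counts of higher and lower genes were 1482 and 2970 (Th1-1 against Th17-17), 745 and 936 (Th17-1 against Th17-17) and 634 and 621 (Th17-1 against Th1-1).

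Without the block the counts were 1478 and 3048, 678 and 1000, and 597 and 507. In Th1-1 against Th17-17, array weights gave 2234 higher and 4882 lower, and lower genes numbered 1766 with median-ratio scaling, 1916 without replicate 3 in all groups and 1938 to 3738 over single omissions. In Th17-1 against Th17-17, array weights gave 1579 higher and 3024 lower, higher genes numbered 379 to 889 over single omissions, and lower genes 502 with median-ratio scaling, 614 with quantile normalization, 522 without replicate 3 and 302 to 1453 over single omissions. In Th17-1 against Th1-1, array weights gave 3419 higher and 2011 lower, the fit of 2 groups gave 303 lower, omission of replicate 3 gave 290 higher and 306 lower, and single omissions gave 195 to 1067 higher and 120 to 794 lower. Read depth is unknown, so the precision of low values such as Pou2af1 in Th1-1 cannot be stated. Of the called list genes' alternative values, 1991 kept their call and 172 lost it.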
